A study of Homo sapiens with 12 samples.

Results

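The alpha and beta tubulin genes examined here were TUBA1A, TUBA1B, TUBA1C and TUBA4A for alpha tubulin and TUBB, TUBB2A, TUBB2B, TUBB3, TUBB4B and TUBB6 for beta tubulin, 10 of the 24359 gene symbols in the deposited tables. They were chosen by name, and each gene was read from the transcript row with the highest mean over the 6 PC-3M libraries. Total RNA was sequenced from PC-3M cells with KMT9a siRNA and PC-3M cells with control siRNA, both at passage 11, and from MCF10A cells with KMT9a siRNA and with control siRNA, both at passage 13. PC-3M cells are human prostate cancer cells, derived from the line PC-3 and selected for metastasis, while MCF10A cells come from breast epithelium and are not transformed. The 4 groups had 3 biological replicates each by their labels. Nothing says whether these came from separate cultures, so p-values measure only the spread between the libraries. The gene N6AMT1 encodes KMT9a, which forms an active methyltransferase together with TRMT112. The siRNA sequences, the dose and the time after transfection are not given in the sources used here. By its title, the study concerns prostate cancer cells that resist castration, and how KMT9a bears on their metabolism and growth.

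Alpha and beta tubulin form the dimers from which microtubules assemble, and dividing cells build the mitotic spindle from them. Human cells hold a family of alpha and beta genes whose proteins are near-identical in the body and differ mostly in the acidic tail at the C-terminus, which motors, associated proteins and modifying enzymes read. Cells also adjust tubulin mRNA to the amount of free dimer: the factor TTC5 recognises the first residues of a nascent tubulin chain on the ribosome and, through SCAPER and the CCR4-NOT deadenylase, sets off decay of that mRNA. Microtubules are the target of the taxanes used against castration-resistant prostate cancer.

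Both ends of the coding sequence are shown because TTC5 reads the first and the modifying enzymes read the last. They were taken from GENCODE release 29 transcripts, which were matched to 10 of the 10 genes by RefSeq identifier. The first 12 coding bases run 5′ to 3′ below, with codons 2 to 4 in capitals.
TUBA1A, TUBA1B and TUBA1C: atgCGTGAGTGC
TUBA4A: atgCGTGAATGC
TUBB and TUBB4B: atgAGGGAAATC
TUBB2A: atgCGCGAGATC
TUBB2B: atgCGTGAGATC
TUBB3 and TUBB6: atgAGGGAGATC
The 4 alpha genes differed from each other only in the third base of a codon here, and so did TUBB2A and TUBB2B.

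The last 30 coding bases follow for TUBA1C, TUBA4A and the 6 beta genes, with the codon before the stop in capitals.
TUBA1C: gacggagaggatgagggtgaagagTATtaa
TUBA4A: tatgaggacgaggatgagggagaaGAAtaa
TUBB: ttcggtgaggaggccgaagaggagGCCtaa
TUBB2A: gaggaggaggagggcgaggacgagGCTtaa
TUBB2B: gaggaggaggagggcgaggacgagGCGtag
TUBB3: gaggagtcggaggcccagggccccAAGtga
TUBB4B: gaggaggaggctgaggaggaggtgGCCtag
TUBB6: gaggatgaggaagaggagatcgatGGAtag
TUBA1C ended in a tyrosine codon, the residue that vasohibins remove and tubulin tyrosine ligase restores, and TUBA4A did not. The coding sequences held 444 codons in TUBB, the shortest, and 451 in TUBA1A and TUBA1B, the longest.

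The targeted gene was checked first. N6AMT1 stood at 3.01, 2.58 and 2.83 CPM in PC-3M cells with KMT9a siRNA, against 11.5, 12.0 and 11.0 CPM with control siRNA, which is -2.02 as a log2 fold change (SE 0.107, limma, adjusted p = 3.47e-09). CPM are read ends relative to the total over the tested genes, scaled by TMM, and log2 fold changes are those of the scaled signal plus 1. Depth in PC-3M was 40236221 to 48439316 read ends in genes with KMT9a siRNA and 51055942 to 53401602 with control siRNA, and the 10 tubulin genes took 0.203% to 0.222% and 0.332% to 0.345% of them. KMT9a siRNA replicate 2 stood apart from the other 2 libraries of its group. With counts in read pairs, 2 read ends taken as 1 pair, its chi-square over the degrees of freedom was 11.1 and 13.4. It was 2.37 between replicates 1 and 3 and 1.59 to 2.34 among the control libraries. The 11 PC-3M markers summed to 4150 to 4570 CPM with KMT9a siRNA and 2600 to 2680 CPM with control siRNA, and they went both ways: VIM averaged 1750 and 993 CPM and KRT19 956 and 259 CPM, while KRT18 averaged 547 and 590, HOXB13 126 and 270 and EPCAM 23.3 and 41.1 CPM. The 9 basal breast markers summed to 894 to 1120 CPM with KMT9a siRNA and 199 to 214 CPM with control siRNA, and ITGB4, at 739 and 22.8 CPM, made most of that difference, while CDH3 averaged 47.4 and 49.9 CPM and the keratins KRT5, KRT14, KRT17 and KRT6A were each at 0.332 CPM or lower. Their part in the results was not tested.

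In PC-3M cells with KMT9a siRNA, 8 of the 10 tubulin genes were lower than with control siRNA, 1 was higher and 1 did not pass the test (limma, adjusted p under 0.05 over 14958 tested genes). All 10 passed the filter on low counts. Beside these counts, 37.3% of all tested genes were lower and 37.2% higher, 74.5% in all. The median log2 fold change of the 10 genes was -0.84, over a range of -2.06 in TUBB2B to 0.29 in TUBA1A, and the median of all tested genes was 0.00099. The groups did not overlap for 9 of the 10 genes, against 77% of all tested genes, and KMT9a siRNA was the lower group without overlap for 8 of the 10, against 38.4%. Bulk RNA cannot tell fewer cells of a kind from less RNA per cell.

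**Figure D1:**
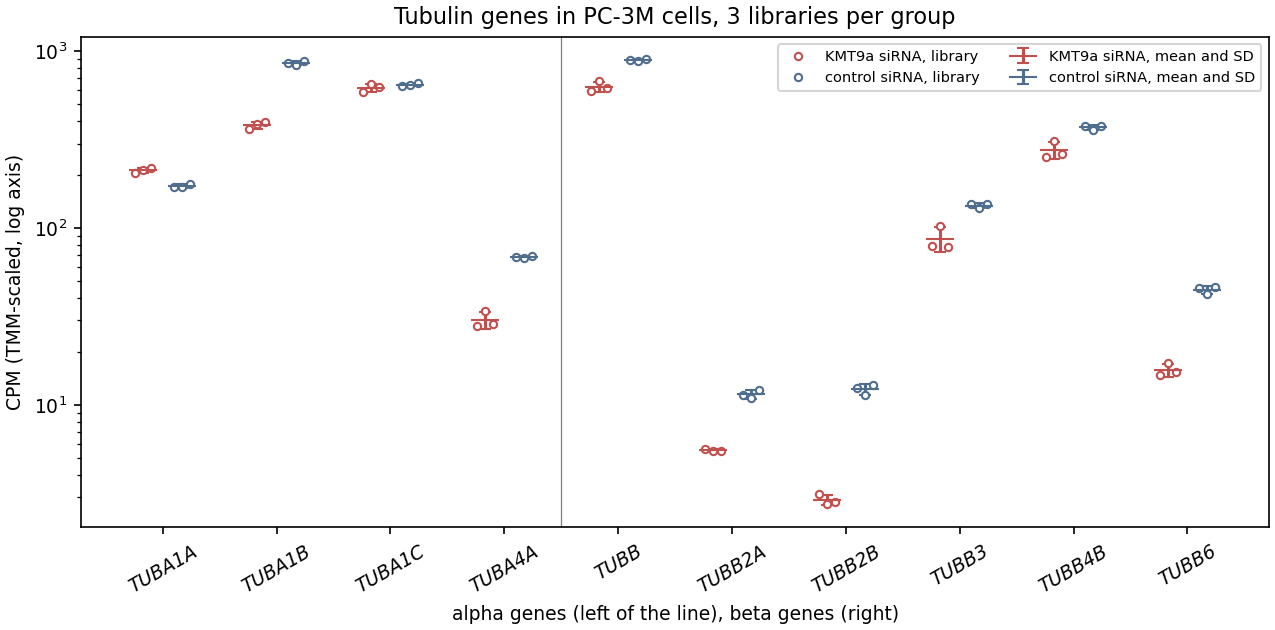
CPM of the 10 tubulin genes in each PC-3M library on a log axis, KMT9a siRNA left of control siRNA for each gene, with open circles for libraries and a bar for the mean and SD of 3. TUBA1A sits higher with KMT9a siRNA, at 203.9 to 217.7 CPM, TUBA1C overlaps, and the KMT9a siRNA libraries of the other 8 genes all lie below their control libraries.

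TUBA1B, one of the alpha genes that most human cell types use (hg19 chromosome 12, 49521567 to 49525304, minus strand), fell. It had 361.4, 387.4 and 394.5 CPM with KMT9a siRNA, against 856.9, 832.5 and 874.5 CPM with control siRNA. Every KMT9a siRNA library was below every control library. The group means were 381.1 ± 17.4 and 854.7 ± 21.1 CPM (SD, n = 3 each), and the log2 fold change was -1.17 (SE 0.0482, limma, adjusted p = 3.87e-10).

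TUBA1C, the other alpha gene of general use (chromosome 12, 49658865 to 49667113, plus strand), is the gene whose change did not pass. Its libraries held 586.4, 651.3 and 626.0 CPM with KMT9a siRNA, against 630.9, 641.6 and 655.8 CPM with control siRNA. The groups overlapped, since replicate 2 with KMT9a siRNA lay above control replicates 1 and 2. The log2 fold change was -0.05, with a 95% interval of -0.157 to 0.0569 (SE 0.0492, limma, adjusted p = 0.371). Without KMT9a siRNA replicate 2 it was -0.08 and passed (limma, adjusted p = 0.0277), and with library totals in place of TMM it was -0.22 and passed (limma, adjusted p = 6.66e-04).

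TUBA1A, the alpha gene that developing neurons use most (chromosome 12, 49578583 to 49582861, minus strand), rose. It stood at 203.9, 213.0 and 217.7 CPM with KMT9a siRNA, against 170.6, 170.5 and 177.4 CPM with control siRNA, with no overlap. The means were 211.5 ± 6.98 and 172.8 ± 3.93 CPM (SD, n = 3 each), 1.22-fold apart, and the log2 fold change was 0.29 (SE 0.0481, limma, adjusted p = 1.24e-04). Under library totals, which moved the median of all genes to -0.17, it was 0.12 (limma, adjusted p = 0.0414). The summed level of 12 neuronal markers beside it was 69.6 to 77.7 CPM with KMT9a siRNA and 67.7 to 68.8 CPM with control siRNA. Most of it was NEFL and SYT1, which went opposite ways with KMT9a and control siRNA. NEFL averaged 55.5 and 61.5 CPM and SYT1 16.2 and 5.33 CPM. The other markers averaged 0.917 CPM or lower, with INA at 0. Their part in the result was not tested. TUBA1A, TUBA1B and TUBA1C lie in 1 stretch of chromosome 12.

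TUBA4A, an alpha gene abundant in platelets and known from motor neuron disease, lies on chromosome 2 (220115001 to 220118638, minus strand) and fell. It had 27.9, 34.02 and 28.7 CPM with KMT9a siRNA, against 68.5, 67.8 and 69.5 CPM with control siRNA. The means of 30.2 ± 3.33 and 68.6 ± 0.837 CPM (SD, n = 3 each) gave -1.19 as the log2 fold change (SE 0.0751, limma, adjusted p = 1.74e-08). The transcripts of STK16 and TUBA4B overlap it on the plus strand, and without stranded counting their reads cannot be told apart from its own.

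TUBB, the beta gene of class I that nearly all cells use (chromosome 6, 30688157 to 30693195, plus strand), fell. It stood at 598.1, 674.0 and 617.4 CPM with KMT9a siRNA, against 889.7, 874.6 and 900.1 CPM with control siRNA, without overlap. The means were 629.8 ± 39.5 and 888.1 ± 12.8 CPM (SD, n = 3 each), and the log2 fold change was -0.50 (SE 0.0510, limma, adjusted p = 1.68e-06). The deposited table lists this transcript with 8 copies, so its counts and its level per length are less certain than those of the other genes.

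TUBB4B, the class IVb gene, is used widely and is also a building block of ciliary axonemes (chromosome 9, 140135711 to 140138159, plus strand). It fell to 253.2, 309.3 and 260.5 CPM with KMT9a siRNA, against 378.4, 355.5 and 376.4 CPM with control siRNA. Replicate 2 came nearest to the control libraries, and the groups still did not overlap. The log2 fold change was -0.44 (SE 0.0690, limma, adjusted p = 8.51e-05). FAM166A overlaps the gene on the minus strand. Beside it, 6 markers of ciliated cells summed to 73.1 to 80.2 CPM with KMT9a siRNA and 22.8 to 27.2 CPM with control siRNA, with DNAI1 at 0 and DNAH5 giving most of the sum. Their part in the result was not tested.

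The class II genes TUBB2A and TUBB2B are the main beta genes of the brain and were low in PC-3M. TUBB2A (chromosome 6, 3153902 to 3157783, minus strand) had 5.60, 5.46 and 5.49 CPM with KMT9a siRNA, against 11.4, 10.8 and 12.1 CPM with control siRNA. Its log2 fold change was -1.04 (SE 0.0917, limma, adjusted p = 3.91e-07). TUBB2B (chromosome 6, 3224495 to 3227968, minus strand) showed the lowest log2 fold change of the 10 genes. It had 3.13, 2.76 and 2.83 CPM with KMT9a siRNA, against 12.4, 11.3 and 13.0 CPM with control siRNA. The means of 2.91 ± 0.198 and 12.2 ± 0.853 CPM (SD, n = 3 each) gave -2.06 as the log2 fold change (SE 0.107, limma, adjusted p = 2.95e-09). These values rested on 108 to 127 read ends per KMT9a siRNA library and 611 to 734 per control library.

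TUBB3, the class III gene, marks neurons and is studied in tumours for its link to taxane resistance (chromosome 16, 89989687 to 90002505, plus strand). It had 79.2, 103.1 and 78.3 CPM with KMT9a siRNA, against 136.2, 129.5 and 135.7 CPM with control siRNA. All KMT9a siRNA libraries were lower, replicate 2 least so. The log2 fold change was -0.63 (SE 0.0892, limma, adjusted p = 3.06e-05), and a second transcript row of the gene gave -0.65. Among 7 neuroendocrine markers the sum was 47.0 to 50.6 CPM with KMT9a siRNA and 91.2 to 105 CPM with control siRNA, with INSM1 at 0 and ENO2 giving most of it at 48.7 and 97.0 CPM. Their part in the result was not tested.

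TUBB6, the class V gene, is known from many tissues at low level and from regenerating muscle (chromosome 18, 12308257 to 12326568, plus strand). It fell to 14.7, 17.3 and 15.3 CPM with KMT9a siRNA, against 45.7, 42.1 and 46.3 CPM with control siRNA. No library of one group came near those of the other. The log2 fold change was -1.51 (SE 0.0777, limma, adjusted p = 2.70e-09). The 7 fibroblast and smooth muscle markers beside it summed to 46.9 to 58.9 CPM with KMT9a siRNA and 132 to 142 CPM with control siRNA, with DCN at 0. COL1A2, at 12.3 and 80.7 CPM, and COL1A1, at 33.4 and 50 CPM, made most of that difference, and MYH11 averaged 5.31 and 5.59 CPM. Their part was not tested.

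**Figure D2:**
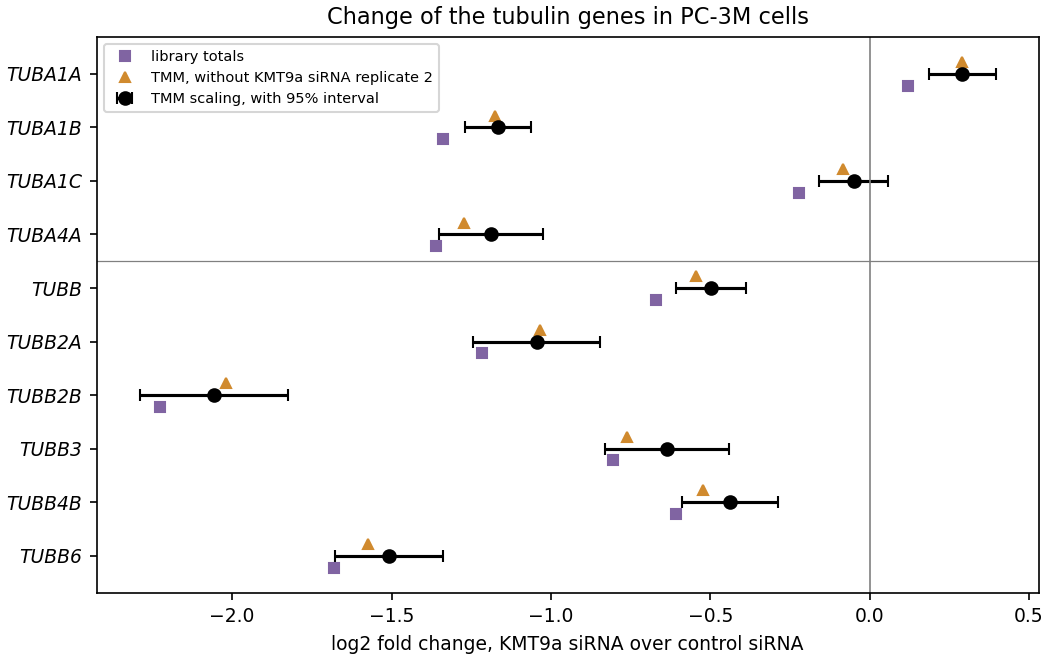
Log2 fold change of each tubulin gene in PC-3M, KMT9a siRNA over control siRNA, under TMM scaling with its 95% interval (black), under library totals (squares) and without KMT9a siRNA replicate 2 (triangles). Under each of the 3, TUBA1A lies above 0 and the 8 genes that fell lie below it, while the interval of TUBA1C spans 0.

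The size of the change varied within both families, with log2 fold changes of -1.19 to 0.29 among the 4 alpha genes and -2.06 to -0.44 among the 6 beta genes. Among the beta genes, the 2 with the highest CPM, TUBB and TUBB4B, had the log2 fold changes nearest 0, at -0.50 and -0.44. In the authors' deposited table the same 9 genes passed at an adjusted p under 0.05 and in the same directions. Their log2 fold changes ran from -2.10 for TUBB2B to 0.27 for TUBA1A, and TUBA1C stood at -0.07 with the authors' adjusted p of 0.331. The share of all genes that passed in the authors' comparison was not counted, and in the fit here it was 74.5%. Of the 10 genes, 6 were highest in replicate 2 among the KMT9a siRNA libraries. The share of all tested genes that were highest in that library was not counted, so this says nothing particular to tubulin. Without that library 9 genes passed as lower and 1 as higher, and the median of the 10 log2 fold changes was -0.90. Of all genes tested in that setting, 11815 of 15223 passed, 5991 lower and 5824 higher, against 11139 of 14958 with every library. When 1 model was fitted over all 12 libraries of both lines, 7773 genes passed in PC-3M, 4105 lower and 3668 higher. Of the tubulin genes 4 passed, all lower: TUBB2A, TUBB2B, TUBB3 and TUBB6, which were listed at 0 in all 6 MCF10A libraries. TUBA1A (0.27), TUBA1B (-1.19), TUBA4A (-1.20), TUBB (-0.52) and TUBB4B (-0.46) did not pass, with limma adjusted p of 0.640, 0.582, 0.305, 0.225 and 0.426. That fit takes 1 spread per gene over both lines, so the MCF10A libraries enter the PC-3M test.

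Levels were compared between genes as CPM per kilobase of the listed transcript. With KMT9a siRNA the order began with TUBA1C at 402 ± 21.2, TUBB at 254 ± 15.9 and TUBA1B at 219 ± 9.997 CPM per kb (SD, n = 3). With control siRNA it began with TUBA1B at 490 ± 12.1, TUBA1C at 416 ± 8.07 and TUBB at 359 ± 5.19 CPM per kb (SD, n = 3). TUBA1B, first in the order with control siRNA, stood below TUBA1C and TUBB with KMT9a siRNA.

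The other 7 genes kept one order in both groups. TUBB4B stood at 173 and 234 CPM per kb with KMT9a and control siRNA, TUBA1A at 128 and 104, TUBB3 at 49.3 and 75.9, and TUBA4A at 20.5 and 46.6. The class V gene TUBB6 stood at 8.70 and 24.7, and the class II genes closed the order, TUBB2A at 3.42 and 7.09 and TUBB2B at 1.44 and 6.08 CPM per kb. No neighbours in either order overlapped in their 3 libraries.

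The summed level per length was lower with KMT9a siRNA in both families. The 4 alpha genes together reached 728.5, 795.1 and 781.9 CPM per kb with KMT9a siRNA, against 1049, 1041 and 1080 CPM per kb with control siRNA. The 6 beta genes together reached 459.5, 540.3 and 471.5 CPM per kb with KMT9a siRNA, against 714.0, 686.8 and 717.7 CPM per kb with control siRNA. The ratio of the alpha sum to the beta sum was 1.59, 1.47 and 1.66 with KMT9a siRNA and 1.47, 1.52 and 1.5 with control siRNA, and these overlapped.

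The makeup of the alpha sum differed between the groups. TUBA1C made up 52.3% ± 0.629 of it with KMT9a siRNA and 39.4% ± 0.478 with control siRNA (SD, n = 3 each), and TUBA1B made up 28.4% ± 0.493 and 46.4% ± 0.504. TUBA1A was 16.6% ± 0.394 and 9.87% ± 0.0491 of the sum, and TUBA4A 2.67% ± 0.215 and 4.41% ± 0.0348. None of these shares overlapped between the groups. The ratio of TUBA1A to TUBA1B per length was 0.594, 0.578 and 0.580 with KMT9a siRNA, against 0.209, 0.215 and 0.213 with control siRNA. A share or ratio within a library does not depend on how the library was scaled.

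The beta sum differed less in its main parts. TUBB was 51.9% ± 1.36 of it with KMT9a siRNA and 50.8% ± 0.568 with control siRNA, TUBB4B 35.3% ± 0.755 and 33.1% ± 0.390, and TUBB3 10.01% ± 0.727 and 10.8% ± 0.0662 (SD, n = 3 each). The shares of TUBB and TUBB3 overlapped between the groups, and those of TUBB4B did not. The minor genes held smaller shares with KMT9a siRNA: TUBB6 was 1.774% and 3.501% of the sum, TUBB2A 0.702% and 1.00%, and TUBB2B 0.297% and 0.860%. The ratio of TUBB2A to TUBB2B per length was 2.23, 2.47 and 2.43 with KMT9a siRNA, against 1.15, 1.20 and 1.16 with control siRNA. No test was run on shares or ratios.

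**Figure D3:**
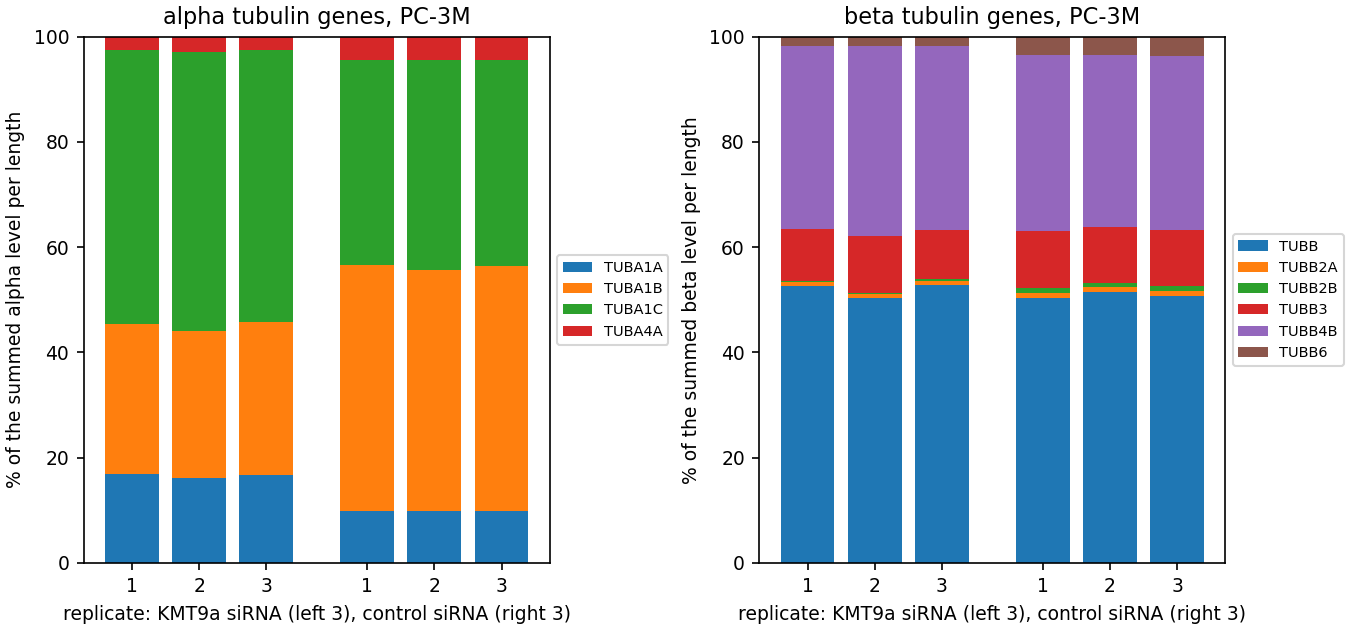
Share of each gene, in percent of the summed CPM per kb of its family, in each PC-3M library, KMT9a siRNA in the left 3 bars of each panel and control siRNA in the right 3. In the alpha panel TUBA1C fills 51.8% to 53.0% with KMT9a siRNA and 38.9% to 39.9% with control siRNA, while in the beta panel TUBB fills 50.3% to 52.9% of every bar.

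Because the genes are near copies of each other, reads of one can be counted for another. The coding sequences of TUBA1A and TUBA1B were 97.2% identical with a longest shared run of 221 bases, and those of TUBA1B and TUBA1C were 96.8% identical with a run of 326 bases. TUBB2A and TUBB2B were 98.1% identical with a run of 725 bases. TUBA4A was 84.4% to 85.7% identical to the other alpha genes, and no shared run was longer than 32 bases.

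Of all windows of 100 bases along the GENCODE transcript, 37.2% in TUBA1B, 15.7% in TUBA1A and 9.89% in TUBA1C also occurred in a transcript of another locus. These transcripts differ in length from the counted rows, most in TUBA1C (3001 bases against 1546) and TUBA4A (2162 against 1471). The shares for the counted rows themselves were not measured and can differ. For TUBB2A and TUBB2B these shares were 56.4% and 46.2%, for TUBB3 5.15%, for TUBB 5.10%, for TUBB4B 2.86%, and for TUBA4A and TUBB6 0%. TUBA4A and TUBB6, which both fell, thus shared no 100-base window with another locus, genes that overlap their own locus set aside. Sharing was greater in windows of 50 bases, at 62.7% in TUBA1B, 33.9% in TUBA1A, 20.0% in TUBA1C and 18.2% in TUBB. In these shorter windows TUBB6 stood at 0.993% and TUBA4A still at 0%. How the authors' counting treated reads that match several loci is not given in the sources used here, and a read shared between TUBA1A and TUBA1B, or TUBB2A and TUBB2B, leaves the split within the pair uncertain.

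The promoters were searched for short motifs because 8 of these genes fell. The sequences are RefSeq's on GRCh38.p14 and matched 10 of the 10 genes, with starts 0 to 244 bases from those of the GENCODE transcripts. The 50 bases before the RefSeq start are shown for 3 genes that fell, TUBB2B, TUBB2A and TUBA4A, and for TUBA1C, whose change did not pass, with TATAA in capitals where it occurs.
TUBB2B, chr6:3227654-3227703, minus strand: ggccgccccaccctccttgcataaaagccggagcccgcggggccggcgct
TUBB2A, chr6:3157545-3157594, minus strand: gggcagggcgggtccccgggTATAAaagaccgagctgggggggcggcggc
TUBA4A, chr2:219253919-219253968, minus strand: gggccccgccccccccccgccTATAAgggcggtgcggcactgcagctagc
TUBA1C, chr12:49265032-49265081, plus strand: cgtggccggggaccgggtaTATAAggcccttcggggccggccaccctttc
The letters TATAA, read on the sense strand 50 to 16 bases before the start, occurred in 5 of the 10 genes, TUBA1C, TUBA4A, TUBB2A, TUBB3 and TUBB4B, and in 4.31% of 35116 promoters of the same length.
Of these 5, TUBA4A, TUBB2A, TUBB3 and TUBB4B fell and TUBA1C did not pass.

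The letters CCAAT, the core of the NF-Y box, occurred on either strand within 250 bases before the start in 7 of the 10 genes, all but TUBA1B, TUBA4A and TUBB2A, and in 32.0% of promoters. TTTGAA, the core of the CHR element of cell cycle genes, occurred on either strand in TUBA1C and TUBB4B and in 13.3% of promoters. None of these 3 motifs contains another, though the searches for CCAAT and TTTGAA also cover the stretch searched for TATAA. Genes with and without each motif were found among those that fell, and a match is a description of the letters alone.

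Other alpha and beta tubulin genes were few. Of 11 in the table, 5 passed the filter on low counts, and TUBA3C, TUBA3E, TUBA3FP, TUBAL3, TUBB8 and TUBBP5 did not. TUBB4A, a beta gene of the nervous system, fell to 1.51 CPM with KMT9a siRNA, against 14.3 CPM with control siRNA, a log2 fold change of -3.22 (limma, adjusted p = 3.28e-10). TUBA8 and TUBB1 rose, each under 5 CPM in mean, by 0.99 and 1.22 on the log2 scale (limma, adjusted p = 5.15e-04 and 8.22e-05). TUBA3D and TUBA4B did not pass, at -0.98 and -0.13.

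Genes of nucleation and folding were next. Beside the counts of this and each later list, 37.3% of all tested genes were lower and 37.2% higher. The gamma tubulin ring complex starts new microtubules, and of its 14 genes, counted with delta and epsilon tubulin, 12 were lower and 1 higher with KMT9a siRNA, with a median log2 fold change of -0.52. MZT1, its smallest subunit, averaged 11.5 and 35.6 CPM with KMT9a and control siRNA, a log2 fold change of -1.62, and gamma tubulin itself, TUBG1, averaged 28.9 and 65.0 CPM (-1.17). TUBGCP5 stood at -1.20 and TUBGCP6, the gene that rose, at 0.25 (limma, adjusted p = 0.0346).

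The folding cofactors take the new chains to the assembled dimer, and 6 of 7 were lower and none higher, with a median of -0.64. ARL2, the GTPase that works with them, averaged 27.5 and 90.4 CPM with KMT9a and control siRNA (-1.72), and TBCD and TBCA stood at -0.85 and -0.68. Prefoldin and the CCT chaperonin receive the chains before the cofactors do. Of these 14 genes, 13 were lower and 1 higher, with a median of -0.52. PFDN6 and PFDN2 stood at -1.04 and -0.96 and CCT7 at -0.82, while PFDN5 rose to 292.7 CPM with KMT9a siRNA, against 255.0 CPM with control siRNA (0.20). The adjusted p of the genes named in the folding lists was 0.00387 or lower (limma).

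The autoregulation machinery was mixed: 7 of 13 genes were higher and 4 lower, with a median of 0.14. TTC5, which reads the nascent chain, averaged 8.21 and 12.6 CPM with KMT9a and control siRNA (log2 fold change -0.62, limma, adjusted p = 9.09e-05), and SCAPER averaged 5.51 and 8.79 CPM (-0.67, limma, adjusted p = 9.44e-05). TTC5 falls outside the rule for named genes and was named after its value was seen. Of the deadenylase, the scaffold CNOT1 (0.49), CNOT2 (1.14) and CNOT8 (0.33) rose, and CNOT11 (-1.12) and RQCD1 (-0.99) fell (limma, adjusted p of 2.86e-04 or lower).

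Of the enzymes that modify tubulin, 21 of 23 were tested, and 4 were higher and 11 lower, with a median of -0.32. Of all tested genes, 37.2% were higher and 37.3% lower, 74.5% in all. VASH2 and VASH1, the vasohibins that remove the final tyrosine shown above, averaged 5.59 and 19.8 CPM (-1.83 on the log2 scale) and 6.33 and 12.1 CPM (-0.93) with KMT9a and control siRNA. The deacetylase SIRT2 fell as well, at -0.81. The ligase family member TTLL12 averaged 107.6 and 39.2 CPM (1.45), the glycylase TTLL3 9.92 and 4.38 CPM (1.18), and TPGS2, a polyglutamylase subunit, rose by 0.47 (limma, adjusted p of 2.64e-05 or lower for these 6). Tubulin tyrosine ligase, TTL, which restores the final tyrosine, was lower too, at 59.1 and 101.1 CPM (-0.77, limma, adjusted p = 2.14e-08). TTL falls outside the rule for named genes and was named after its value was seen.

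Structural microtubule-associated proteins were split, with 6 higher and 7 lower of 19 tested and a median of -0.05. Both counts are near the shares of all tested genes, 37.2% higher and 37.3% lower. EML4 averaged 123.4 and 45.7 CPM with KMT9a and control siRNA (1.43), and MAP7, which recruits kinesin-1, and EML3 each stood at 0.51. MAP9 averaged 19.5 and 78.6 CPM (-2.04), and tau, MAPT, 5.18 and 12.9 CPM (-1.31). MAP1LC3B, which is known for its role in autophagy, stood at -1.43. Each of these 6 passed with an adjusted p of 1.56e-04 or lower (limma).

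Plus-end tracking and dynamics factors were mostly lower, 14 of 20 tested against 4 higher, with a median of -0.43. MAPRE1, the end-binding protein EB1, averaged 219.3 and 104.1 CPM with KMT9a and control siRNA (1.07), while MAPRE2, EB2, averaged 4.86 and 11.5 CPM (-1.24). The spindle assembly factor TPX2 averaged 17.3 and 69.7 CPM (-2.01) and the mitotic protein CKAP2 5.19 and 15.9 CPM (-1.62). SLAIN1 and the severing enzyme SPAST rose, by 1.31 and 0.78. The highest adjusted p of the 6 was 1.02e-06 (limma). For each gene named from these lists, from MZT1 to SPAST and leaving out TTC5 and TTL, the 3 KMT9a siRNA libraries did not overlap the 3 control libraries. These genes were picked for large changes in these same libraries, so this adds nothing to the test. Of all tested genes, 77% did not overlap.

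**Figure D4:**
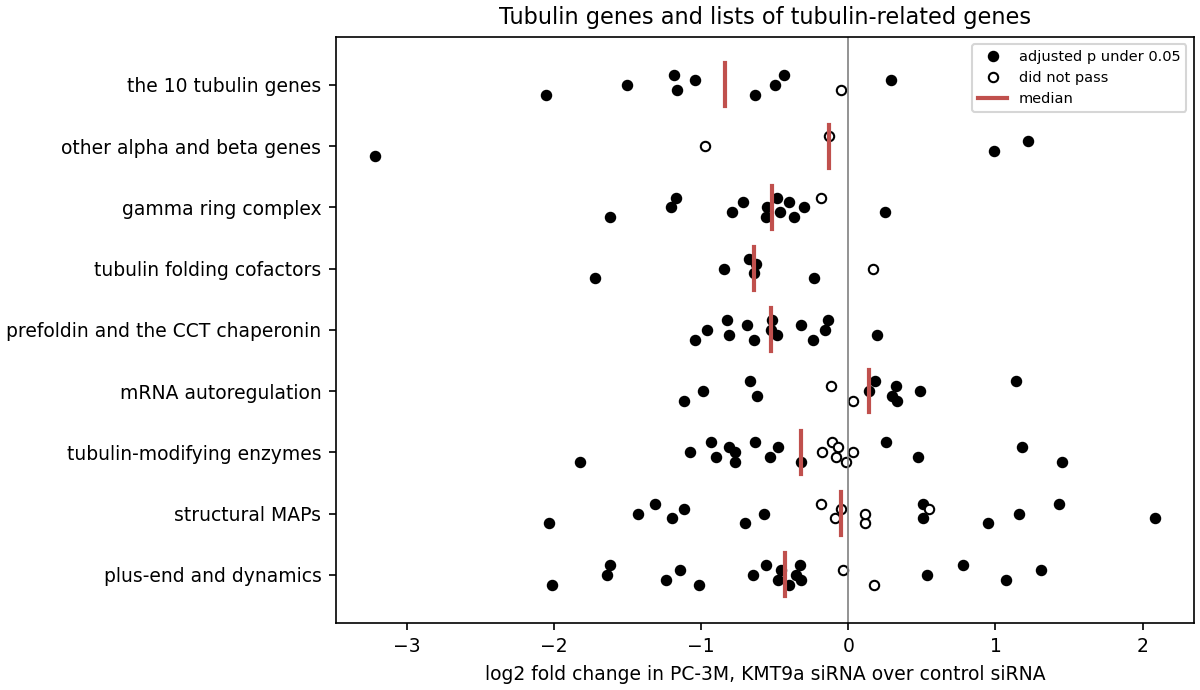
Log2 fold change in PC-3M, KMT9a siRNA over control siRNA, of each tested gene of the 10 tubulin genes and of 8 lists of related genes, with filled circles for an adjusted p under 0.05 (limma) and red bars for medians. The median is -0.84 for the 10 tubulin genes and between -0.64 and 0.14 for the lists.

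The genes nearest in pattern were found by the root mean square difference, over the 6 PC-3M libraries, of log2 values centred on the control mean. Among 10697 candidates outside the tubulin lists, YY1AP1 was nearest to TUBA1C, with a difference of 0.0212, followed by COG7 (0.0235) and MTF1 (0.0238). Nearest to TUBB were RNF5P1 (0.0199), ZNRD1 (0.0203) and POLR2J (0.0220).

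The libraries labelled MCF10A gave little on the tubulin genes. Their depth was 181064 to 255642 read ends, and 2298 to 2594 genes were above 0. KRT5, CDH3, LAMB3 and ITGB4, 4 of the 9 basal breast markers, were listed at 0 in all 6 libraries, and genes that every cell uses were near 0 too, with 0 to 16 read ends per library for GAPDH and 0 to 11 for ACTB. KRT17 was present, at a mean of 1360 CPM with KMT9a siRNA and 757 CPM with control siRNA. For that reason the values are given per library. With 2 read ends taken as 1 pair, control replicates 1 and 2 gave a chi-square over the degrees of freedom of 0.799. The other control comparisons gave 1.06 and 1.31, and those with KMT9a siRNA 2.51 to 21.1. The value depends on taking read ends as pairs, so it cannot say whether these replicates differed by less than the sampling noise. Control replicates 1 and 2 were also counted as 1 sample.

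TUBA1A was the only tubulin gene that passed the filter in that line. It had 285, 553 and 340 read ends with KMT9a siRNA, against 370, 470 and 424 with control siRNA, or 1502, 4513 and 1290 CPM against 1754, 2058 and 1827 CPM. Replicate 2 with KMT9a siRNA was above, and the other 2 below, all control libraries. The log2 fold change was 0.14, with a 95% interval of -0.884 to 1.16 (SE 0.444, limma, adjusted p = 0.862), where 0.477% of 1049 tested genes passed, 0.0953% higher and 0.381% lower. With control replicates 1 and 2 counted as 1 sample it was 0.14 (limma, adjusted p = 0.916). Without KMT9a siRNA replicate 2 it was -0.44 and passed (limma, adjusted p = 0.0360), and it was also below 0 with library totals (-0.19) and without a filter on low counts (-0.0038), where it did not pass (limma, adjusted p = 0.731 and 0.993).

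The other members of the family were at a few read ends or at 0. TUBB4B had 13, 18 and 9 read ends with KMT9a siRNA, against 3, 3 and 2 with control siRNA, without overlap. Among the tested genes of that line, which TUBB4B is not, 28.2% did not overlap and 15.3% were higher without overlap. TUBA1B had 0, 0 and 3, against 0, 6 and 4, and TUBA1C had 3, 6 and 7, against 4, 4 and 2. TUBB had 2 in each KMT9a siRNA library, against 3, 6 and 2, and TUBA4A was listed at 0 with KMT9a siRNA, against 2, 0 and 0 with control siRNA.

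TUBB2A, TUBB2B, TUBB3 and TUBB6 were listed at 0 in all 6 libraries. With a floor of 3 read pairs, a level of 23.5 to 33.1 CPM in pairs could still give a count of 0 in 1 library, by counting error only. The change of TUBA1A in PC-3M minus that in MCF10A was 0.16 (SE 0.446) and did not pass (z test of the 2 limma fits, adjusted p = 0.819), where 27.6% of 797 genes tested in both lines did. Without MCF10A KMT9a siRNA replicate 2 it was 0.73 and passed (adjusted p = 2.88e-05), and without replicates 1 or 3 of that group it was -0.05 and -0.18 and did not pass (z test of the 2 limma fits).

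**Figure D5:**
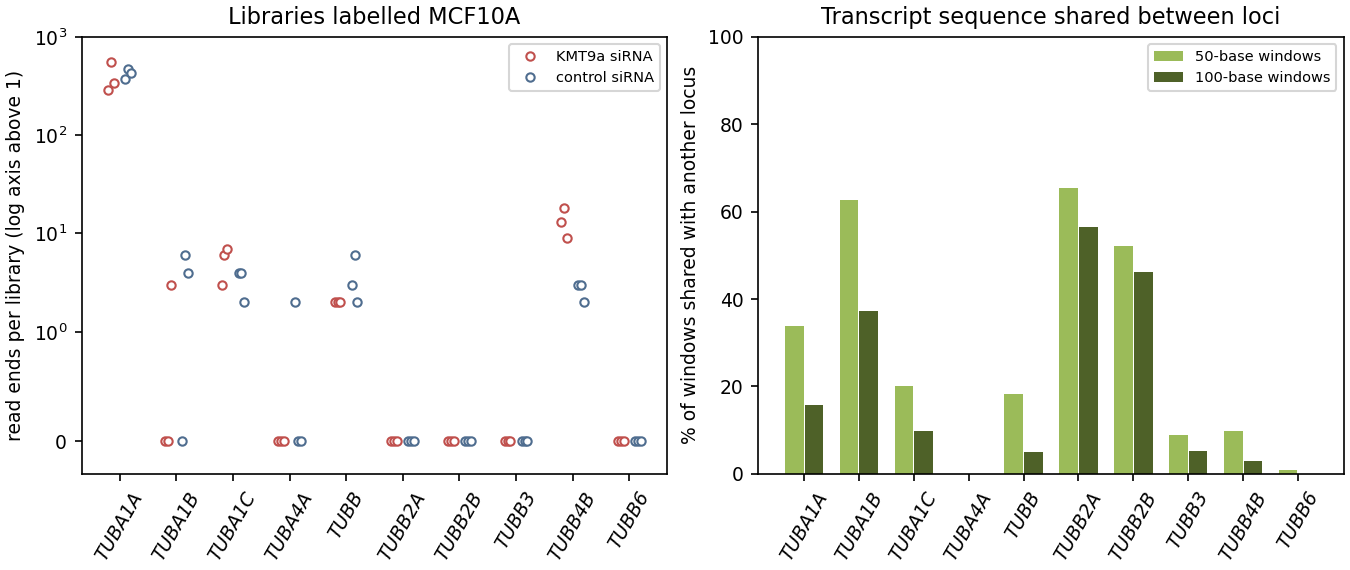
Left, read ends of each tubulin gene in the 6 libraries labelled MCF10A, KMT9a siRNA left of control siRNA, on an axis that is logarithmic above 1. Right, percent of 50-base and 100-base windows of each GENCODE transcript that also occur at another locus. On the left TUBA1A has 285 to 553 read ends and no other gene more than 18, and on the right TUBB2A has the highest bar, at 65.5% of 50-base windows.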

How the data were processed

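RNA was measured by sequencing in 12 libraries, whose titles give the groups. STAR, HOMER, edgeR and hg19 appear in the submitters' processing notes without versions or roles; strand, filters and the treatment of multiply matching reads are not given in the sources used here. For each of the 2 lines the authors deposited a scaled signal per RefSeq transcript, and, per the file headers, results of their own comparison: a log2 fold change with raw and adjusted p-values. This signal was a whole multiple of a step per library (tolerance 0.1 step, 100% of values), and even multiples were in excess (51.3% to 54.1% of values above 0), so whole reads were recovered with 1 step as a read end. No per-sample column was left unused.

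Per table, limma 3.58.1 with a mean-variance trend (R 4.3.3) was run on log2(x + 1), where x is the TMM-scaled signal, on genes kept by the edgeR filter (minimum count 10, minimum total 15), with Benjamini-Hochberg adjustment over all tested genes and a threshold of 0.05. The added 1 makes fold changes of low genes look smaller. The edgeR 4.0.16 quasi-likelihood test on the recovered reads, an alternative, called 11147 genes in PC-3M, and DESeq2 1.42.0 called 10963. Other alternatives covered scaling, filter, pseudocount, transcript rows, the replicate block, each library left out and 1 fit over all libraries. Averaging MCF10A control replicates 1 and 2 was added after seeing the data. The genes, lists, markers and tests were chosen with earlier results of these data known, and housekeeping genes after seeing the data. Named are all 10 tubulin genes, N6AMT1, per list up to 3 called genes per direction with the largest change and a mean of at least 5 CPM, and the 3 nearest genes per family. Sequences came from GENCODE release 29 and RefSeq, and amino acid sequences were not used here; some markers and 1 sequence are not reported here. The 95% intervals are limma's and reflect the spread between libraries. The floors cover counting error only, since reads are not independent molecules.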

Additional observations from a re-analysis of the deposited data

How the results depend on the processing

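Over 15 settings, leaving aside library totals and the fit over all 12 libraries, every tubulin gene kept its direction in PC-3M. The log2 fold change of TUBA1B ran from -1.21 to -1.14, of TUBB2B from -2.12 to -1.997, of TUBB3 from -0.76 to -0.58 and of TUBA1A from 0.26 to 0.31, and TUBA1C, at -0.08 to -0.02, passed in 1 of them, without KMT9a siRNA replicate 2. Library totals gave 4384 genes higher and 6821 lower, 10 tubulin genes called, and moved 14 levels per length by more than their SD. All transcript rows gave 19819 called in PC-3M. The labels do not say whether the replicate numbers pair samples. Libraries of the same number correlated by -0.146 to -0.039 in PC-3M and -0.08 to 0.163 in MCF10A after removing group means. With 3 libraries per group these values cannot exclude a pairing. With the replicate block 10949 genes and 9 tubulin genes were called in PC-3M and 0 genes in MCF10A. Leaving out 1 library gave 10428 to 11815 genes in PC-3M, 0 to 170 in MCF10A, 0 to 1 tubulin genes called in MCF10A and 0 to 1 that differed between lines. The fit over all 12 libraries gave 4 tubulin genes among 7773 genes in PC-3M and 1 among 71 genes in MCF10A. Its interaction called 5 tubulin genes, and the share of all genes it called was not counted. TUBB2A, TUBB2B, TUBB3 and TUBB6 were listed at 0 in all 6 MCF10A libraries. They have no measured change in that line, so for them the interaction cannot show a difference between lines. The fit over all 12 libraries joins tables scaled separately. In MCF10A, DESeq2 called 48 genes, library totals 1, no filter 66, all transcript rows 0 and averaged control replicates 0, against 5. TUBA1A in MCF10A turned to -0.19 with library totals, -0.0038 without a filter and -0.44 without KMT9a siRNA replicate 2, and ran to 0.47 without replicate 3. Its difference between lines turned to -0.05 and -0.18 without MCF10A KMT9a siRNA replicates 1 and 3, and was 0.73 and passed without replicate 2. The causes were not tested. The MCF10A table is limited by its low read numbers and by housekeeping genes near 0; whether it holds the full libraries was not tested.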
